A study of Mus musculus with 19 samples.

Results

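The lumbar dorsal root ganglia of naive, vehicle-treated mice were described from 5 RNA sequencing libraries, out of 19 in the series. The 5 are all those whose labels name this group, and are called naive vehicle libraries 1 to 5. All came from male MaFIA mice, a strain homozygous for the macrophage Fas-induced apoptosis transgene. In this strain the Csf1r promoter drives an inducible Fas construct in macrophages and other myeloid cells, and the dimerizing drug AP20187 sets it off. The naive vehicle mice had no knee surgery and were matched in age to mice studied 8 weeks after destabilization of the medial meniscus, a surgical model of knee osteoarthritis. They received intraperitoneal vehicle daily on 5 consecutive days, and their age in weeks is not given in the labels. Ganglia L3 to L5 of 1 side were pooled and sequenced as stranded poly(A) libraries. Every group of the series carries the transgene, so these libraries stand for vehicle-treated transgenic ganglia and not for wild-type ganglia. The labels do not tie each sample to a single animal, so the spread between libraries may be partly technical.

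A dorsal root ganglion holds the cell bodies of the sensory neurons that serve skin, muscle, joint and viscera. Unmyelinated nociceptors detect damaging heat, chemicals and force, while larger myelinated neurons carry touch and limb position. Each cell body is wrapped by satellite glia, and the axons are ensheathed by myelinating and non-myelinating Schwann cells, with vessels, connective tissue and resident macrophages between them. Each neuron class is set by its transcription factors and is read out by its ion channels, receptors and peptides.

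Levels are given as FPKM, the fragments of a gene scaled to its length and to the mapped fragments of the library, so that genes of different length can be ranked together. A mean is followed by its SD over the 5 libraries (n = 5), and lists of 5 values run from library 1 to library 5. A further unit, CPM, is the count scaled to library size after TMM (trimmed mean of M values) and is not divided by length. It was used to compare libraries with each other, by gene or by the mean of log2 CPM over a list, and levels of different genes are compared in FPKM unless CPM is named. The libraries held 61566267 to 74691396 counts each and 24616 to 26993 genes with a count. Of 36682 genes in the table, 13787 had a mean of at least 1 FPKM, and 12469 of these carried a protein-coding transcript. A mean of at least 10 FPKM was reached by 4531 genes and 100 FPKM by 336. Across genes, log2 CPM of library pairs had Pearson correlations of 0.938 to 0.979, as a description, since genes are not independent replicates. With 5 libraries an order of 2 genes that holds in 5 of 5 has a smallest exact two-sided p of 0.0625, so orders are given as the number of libraries that show them. In whole ganglia, fewer cells of a type and less RNA per cell cannot be told apart.

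Mitochondrial transcripts led the ganglion. The gene of cytochrome c oxidase subunit 1, mt-Co1, ranked first at 15845, 10756, 20961, 18831 and 12746 FPKM in libraries 1 to 5, a mean of 15828 ± 4201. It was followed by mt-Atp8 at 11314 ± 3158 FPKM, which encodes a short subunit of the ATP synthase. That gene is short and overlaps mt-Atp6 on the same strand, so its place by FPKM is uncertain. In CPM it was at 2357 ± 576, below mt-Atp6 at 5096 ± 1159. All 13 protein-coding genes of the mitochondrial genome were high except mt-Nd3, at 339.7 ± 90 FPKM. The 37 genes of that genome, transfer and ribosomal RNAs included, held 7.55 ± 1.998% of all counts. Libraries 3 and 4 had the highest share and library 2 the lowest. Among the top 25 genes were also 6 predicted pseudogenes on chromosome 1, and 4 of them were each at a level close to that of a mitochondrial gene. Gm28661 was at 98.7% to 99.2% of mt-Co2 in every library, and Gm28437 at 97.4% to 99.2% of mt-Co3. Reads shared between a mitochondrial gene and a near-identical nuclear copy can be counted for both, so the levels of these pseudogenes are uncertain. The 25 most abundant genes took 33.3 ± 5.49% of summed FPKM, and when the genes of the mitochondrial genome were left out the 25 highest of the rest, which hold the 6 pseudogenes, took 14.5 ± 2.02%.

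Besides the mitochondrial genes, 2 further kinds of transcript held high ranks. The adult globins Hbb-bs, Hba-a1, Hba-a2 and Hbb-bt, the oxygen carriers of red blood cells, were between 1082 and 2686 FPKM on average. Hbb-bs stood at 1533, 1693, 2963, 5756 and 1487 FPKM, so library 4 was far above the others. The globin pairs are near-identical copies and the split between them is uncertain, so no order among the 4 is given. The rest of the top ranks belonged mainly to neuronal and cytoskeletal genes. Tuba1a, an alpha tubulin of growing and mature axons, was at 2008, 1826, 1810.2, 1159 and 1838 FPKM. Sncg, gamma-synuclein, a protein abundant in peripheral sensory neurons, was at 1451, 972, 1696, 804 and 1179.6 FPKM and closed the top 25. Eef1a1, the elongation factor of translation, was at 1108 ± 281 FPKM. The neurofilament light chain Nefl, at 980.0 ± 338 FPKM, came just ahead of Apod, a lipid carrier made by fibroblasts and glia, at 968 ± 673. Tubb3, the tubulin used as a neuron marker, reached 914 ± 233 FPKM. Calm2, Ubb, Apoe, Hspa8, Uchl1 and Hsp90ab1 followed, from 855 down to 717 FPKM. Besides these, the ribosomal RNA repeat gene Rn18s-rs5 and an unnamed short RNA gene stood in the top 25. Both can be reached by stray reads in a poly(A) library and are listed without further reading.

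**Figure D1:**
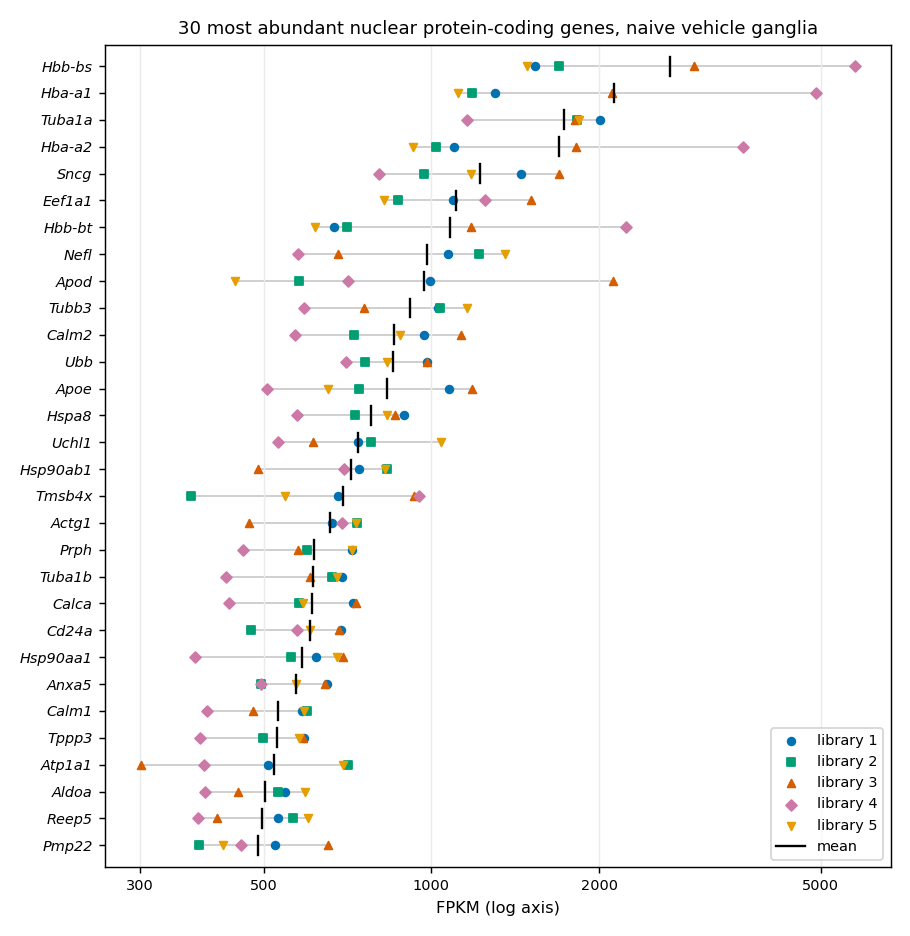
The 30 nuclear protein-coding genes with the highest mean FPKM (log axis, 1 row a gene), with 1 point for each naive vehicle library and a bar at the mean. Library 4 is the highest for all 4 globins and the lowest for Sncg, Nefl and Tubb3, and library 3 is the highest for Apod.

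The label of the tissue was borne out by its neuron markers. All 16 genes of a pan-neuronal list had a mean above 10 FPKM, from Elavl3 at 16.1 ± 4.28 to Sncg at 1220.4 ± 359 FPKM. Prph, peripherin, the intermediate filament of small sensory neurons, was at 720.0, 599, 576, 459 and 719.7 FPKM. The heavier neurofilament chains, of large myelinated neurons, were less even. Nefh, the heavy chain, was at 454, 573, 236, 207 and 684 FPKM, and Nefm, the medium chain, at 417, 650.5, 201, 237 and 608. Libraries 2 and 5 were high for both and libraries 3 and 4 low. Nefh was below Prph in all 5 libraries, at 0.41 to 0.957 times its level, while Nefh and Nefm changed places between libraries. Genes of transmitter release were all well expressed, and 20 of 20 listed had a mean above 1 FPKM. Cplx1, a complexin that clamps vesicle fusion, led them at 263 ± 88.7 FPKM. Snap25, a SNARE protein, was at 171 ± 48.7 FPKM. The vesicular glutamate transporters were ordered Slc17a6, Slc17a7 and Slc17a8, at 47.8, 19.1 and 5.12 FPKM.

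Each of the 7 neuron class lists had members with a mean of at least 1 FPKM, 2 of 3 for cold-sensing neurons. Some of these genes are made by other cells too, so a level is not proof of a class. Peptidergic nociceptors are known by Calca, the gene of calcitonin and of the peptide CGRP alpha. Calca was at 723, 579, 733, 433 and 587 FPKM, rank 45 among all genes. Its paralog Calcb was 6.44 to 10.3 times lower, at 71.3 ± 10.96 FPKM. Tac1, the gene of substance P, was at 59.5 ± 11.7 FPKM, and Adcyap1, that of the peptide PACAP, at 23.1 ± 2.6. Calca alone made up 70.6 ± 3.32% of the summed FPKM of its 7-gene list. The non-peptidergic nociceptors were seen in P2rx3, Mrgprd and Lpar3. Mrgprd, a receptor that marks the main class of epidermal nociceptors, was at 42.4, 57.2, 30.4, 51.6 and 36.8 FPKM. P2rx3, an ATP-gated channel, was at 82.8, 92.6, 74.03, 67.6 and 72.5 FPKM and varied little, with an SD of log2 CPM of 0.21. The 7-gene list of itch neurons gave low levels, led by Nts at 9.58 ± 4.28, Sst at 8.86 ± 1.39 and Nppb at 7.36 ± 3.397 FPKM. Other genes tied to itch, Nmb and Mrgprx1, were higher and are given with their own families. The first of these was above the second in the mean and below it in the median, so their order is not settled. Th, tyrosine hydroxylase, which marks C-fibre low-threshold mechanoreceptors in these ganglia, was at 45.4, 41.5, 36.6, 63.4 and 57.2 FPKM. Pvalb, a calcium buffer of limb position neurons, was at 49.7, 44.7, 83.9, 25.2 and 46.7 FPKM, and Spp1, osteopontin, at 93.1 ± 31.6 FPKM. Both genes were highest in library 3. The 7-gene limb position list as a whole was at -0.097 there, against its mean in log2 CPM, and was highest in library 5. By the median of members it was highest in library 3. Spp1 is made by macrophages as well and Pvalb by fast skeletal muscle, and the lists of both cell types were highest in library 3 too, at 1.06 and 2.01 above their means on the log2 CPM scale. Their part in these values was not tested. Ldhb, a lactate dehydrogenase subunit listed for large touch neurons, was at 135 ± 32.3 FPKM, and it is expressed in other cells too. Cold-sensing neurons had Trpm8 at 10.2, 15.4, 7.76, 4.59 and 6.38 FPKM, with library 2 at the top.

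Of 24 genes of neuropeptides and granins, 17 had a mean of at least 1 FPKM and 4 had one under 0.1 FPKM. Calca took 50.2 ± 2.26% of their summed FPKM. Scg2, a granin that is cut into peptides in dense-core vesicles, was at 172 ± 40.4 FPKM. Nmb, neuromedin B, an itch peptide, was at 144, 108, 163, 85.1 and 123 FPKM. That order, Calca above Scg2 above Nmb above Calcb, held in all 5 libraries. Of peptides tied to nerve damage, Gal, galanin, stood in place 13 of the 24 at 8.05 ± 3.21 and Npy, neuropeptide Y, at 0.682 ± 0.341 FPKM.

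Sodium channels were dominated by the forms of small sensory neurons. Among the 10 pore-forming genes, Scn10a (Nav1.8) was at 94.04, 142, 56.8, 111 and 110.3 FPKM and Scn11a (Nav1.9) at 83.9, 114, 50.3, 114 and 102. Both carry tetrodotoxin-resistant current in nociceptors, and both were lowest in library 3. The deposited coordinates place them side by side on chromosome 9, at chr9:119437533-119548388 and chr9:119582825-119654522 (GRCm39). Scn10a was above Scn11a in 4 of 5 libraries, so the pair cannot be ordered with confidence. Scn7a, a sodium-sensing channel found in non-myelinating Schwann cells and some neurons, was steady at 85.5, 89.2, 75.1, 75.8 and 78.5 FPKM. Scn9a (Nav1.7), which sets the firing threshold of nociceptors, was at 39.8, 47.01, 26.8, 39.5 and 41.1 FPKM and below Scn7a in every library. The channels of myelinated axons came next, with Scn1a at 11.2 ± 4.097 and Scn8a at 7.603 ± 3.21 FPKM. Scn10a exceeded Scn8a by 11.3 to 18.8 times. Scn2a and Scn3a were low, at 1.07 and 0.552 FPKM. The 3 highest genes held 81.8 ± 1.39% of the FPKM summed over the 10. Of the auxiliary beta subunits, Scn4b was at 50.5 ± 22.4, Scn3b at 20.3 ± 2.78 and Scn2b at 10.4 ± 2.704 FPKM, and these 3 were lowest in library 3.

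Calcium channel transcripts were lower than those of sodium channels. Cacna1b, the N-type channel that triggers release from sensory terminals, was at 11.5, 15.8, 6.68, 15.4 and 11.8 FPKM and above every other of the 10 pore-forming genes in all 5 libraries. Cacna1a (P/Q-type) followed at 5.29 ± 1.56 and Cacna1h (T-type) at 4.77 ± 1.66 FPKM. Cacna1c, an L-type channel, was at 3.0 ± 0.814 FPKM. The other 6 genes were at or below 1.47 FPKM. Auxiliary subunits ran higher than pores: Cacnb3 was at 48.6 ± 13.7 FPKM, and Cacna2d1, the subunit bound by gabapentin, at 22.5, 23.97, 14.6, 20.5 and 21.1. Cacng7 lay within the spread of Cacna2d1, at 20.4 ± 6.01 FPKM. Among the pacemaker channels Hcn2 was highest at 18.2 ± 7.21 FPKM, with Hcn3 at 5.66 ± 1.17 and Hcn4 at 2.09 ± 0.543. Hcn2 was above Hcn3 in all 5 libraries.

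Of 83 potassium channel genes, 54 had a mean of at least 1 FPKM and 8 had one under 0.1 FPKM. The beta subunit Kcnab2, a partner of axonal Kv1 channels, stood out at 109, 152, 68.4, 86.3 and 147 FPKM. Kcnd1, a pore gene of A-type current, was at 35.7, 44.2, 21.3, 36.3 and 49.3 FPKM, and Kcna2, the Kv1.2 pore beside the node of Ranvier, at 24.9, 36.03, 17.9, 22.3 and 27.9. All 3 were lowest in library 3 and followed in that order in all 5 libraries. Below them the ranking was close: of 82 neighbouring pairs in the family, 4 kept their order in every library. Library 3 was lowest for 44 of the 83 genes and library 2 highest for 34. Kcnj10, the inward rectifier by which satellite glia clear potassium, was at 8.32, 9.14, 7.35, 4.38 and 7.02 FPKM, lowest in library 4.

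TRP channels, the heat, cold and irritant sensors of nociceptors, were led by Trpv1 and Trpa1. Trpv1, the capsaicin and heat receptor, was at 30.2, 33.7, 20.4, 26.8 and 33.7 FPKM. Trpa1, the receptor of mustard oil and other irritants, was at 22.96, 19.8, 22.7, 22.6 and 22.5 FPKM. Trpv1 was above Trpa1 in 4 of 5 libraries and below it in library 3, where Trpv1 was lowest. The spread of the pair differed: the SD of log2 CPM was 0.35 for Trpv1 and 0.069 for Trpa1. Of 22 TRP genes, 11 had a mean of at least 1 FPKM and 5 had one under 0.1.

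Of 12 channel genes listed for force or acid, the 3 highest lay close together. Tmem63b, an osmosensitive channel, was at 24.03 ± 6.08 FPKM, and Asic3, the acid sensor of muscle and joint afferents, at 23.9, 30.2, 16.7, 9.65 and 33.7 FPKM. Piezo2, the channel of light touch and limb position, was at 19.1, 28.4, 12.1, 28.99 and 24.6 FPKM. None of these 3 was above the next in all 5 libraries, and the median put Piezo2 first. In library 4 Asic3 was at its lowest and Piezo2 at its highest. Piezo1, at 0.838, 0.923, 1.97, 2.96 and 0.817 FPKM, was below Piezo2 by 6.16 to 30.7 times and was highest in library 4. Piezo1 is known from vessel walls and red cells.

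Among ATP-gated channels P2rx3 held 81.3 ± 2.41% of the summed FPKM of 7 genes. Its partner subunit P2rx2 was at 1.72 ± 0.514 FPKM, and P2rx6, next after P2rx3, at 5.19 ± 2.03. The nicotinic and serotonin-gated channel genes were led by Htr3a, a serotonin-gated subunit, at 59.8, 65.1, 49.1, 23.5 and 58.6 FPKM, lowest in library 4. Chrna6, a nicotinic receptor subunit, was at 35.04, 27.4, 33.7, 26.2 and 31.5 FPKM and Chrnb2 at 10.5 ± 3.12. The kainate receptor subunit Grik1, with 44.9, 51.1, 29.97, 47.97 and 55.9 FPKM, led 18 ionotropic glutamate receptor genes, followed by Gria4 at 12.7 ± 3.53 and Grin1 at 10.4 ± 3.12. Among inhibitory receptor genes, Glrb, the beta subunit of the glycine receptor, was at 32.2 ± 7.64 FPKM. The chloride importer Slc12a2 (NKCC1) was at 13.9, 13.1, 14.3, 16.7 and 10.7 FPKM and the neuronal exporter Slc12a5 (KCC2) at 0.749, 0.735, 0.835, 0.921 and 0.729. Slc12a2 exceeded Slc12a5 by 14.7 to 18.6 times, and no library came near equality. Sensory neurons are known to hold chloride high, unlike most central neurons. Of the anoctamin and Clcn channels, Ano3 was highest and even, at 60.9, 59.9, 59.6, 54.6 and 55.5 FPKM.

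**Figure D2:**
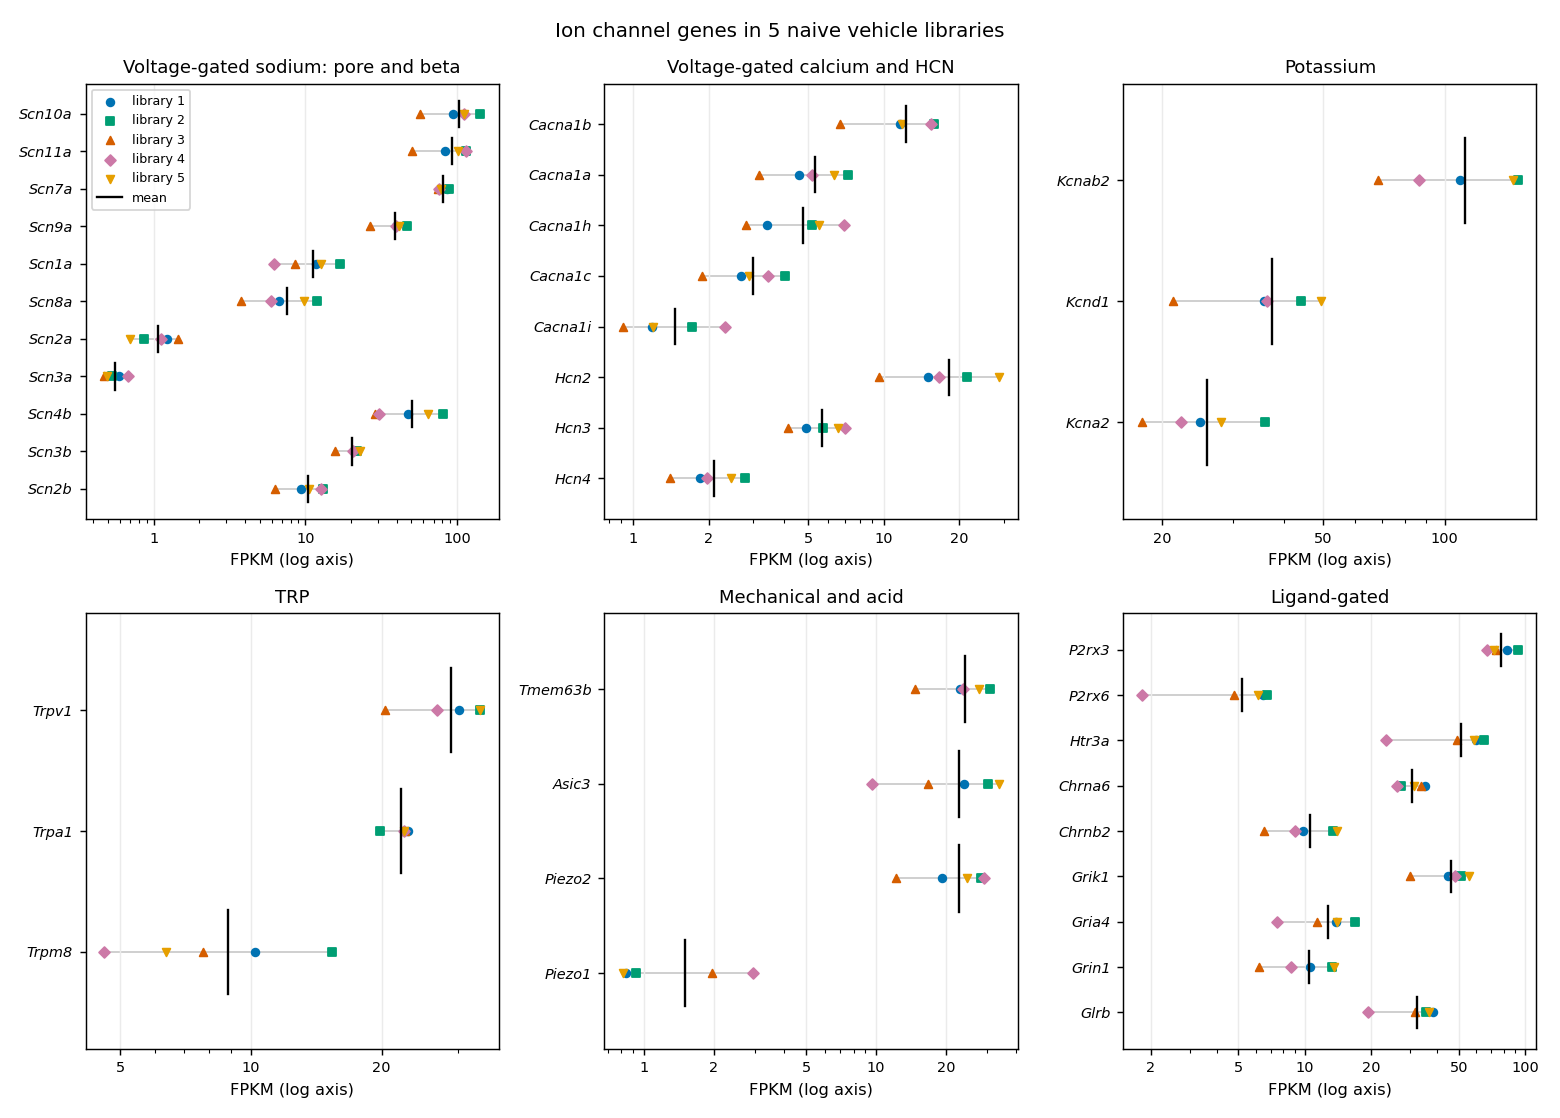
FPKM (log axis) of selected ion channel genes in 6 families, 1 row a gene in order of mean level within a family, with 1 point for each naive vehicle library and a bar at the mean. Library 3 holds the lowest point for Scn10a, Scn11a, Scn9a, Trpv1, Piezo2 and Kcnab2, while Trpa1 and Scn7a show little spread.

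When genes were instead classed by the GO terms of the deposited table, 254 of 443 with a channel activity term had a mean of at least 1 FPKM. Scn10a was the first voltage-gated pore in that order, in place 6 behind Anxa2, Anxa6, Snap25, Vdac1 and Kcnab2. None of those 5 is a voltage-gated pore of the plasma membrane: Anxa2 and Anxa6 are annexins, and Vdac1 is the pore of the outer mitochondrial membrane. The next places went to Aqp1, a water channel, at 96.4 ± 13.3 FPKM, Scn11a and Kcnip4, at 81.3 ± 10.9 FPKM, a partner of A-type potassium channels.

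Receptors for nerve growth factors made up the highest receptor group. All 10 listed genes had a mean of at least 1 FPKM. Ngfr, the p75 receptor shared by the neurotrophins and present on Schwann cells and neurons, was at 114, 158, 60.9, 118 and 174 FPKM. Ret, the signalling receptor of the GDNF family, was at 83.1, 117, 42.2, 108 and 109.9 FPKM. Ngfr was above Ret in all 5 libraries, and both were lowest in library 3. Ntrk2 (TrkB) was at 9.02 ± 0.91 FPKM and Ntrk3 (TrkC) at 5.97 ± 1.63. Of the co-receptors that bind the GDNF ligands, Gfra2 was at 48.4 ± 13.8, Gfra1 at 21.9 ± 4.04, Gfra3 at 19.5 ± 4.47 and Gfra4 at 4.23 ± 0.958 FPKM. Gfra2 was above Gfra1 in all 5 libraries, and Gfra1 above Gfra3 in 3. Of 50 genes with the GO term for receptor tyrosine kinases, Ret came first, and Fgfr1 was at 16.3 ± 2.12 FPKM.

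Cytokine receptors were led by the shared chains of the interleukin-6 family. Il6st (gp130) was at 43.7, 55.6, 38.6, 71.8 and 41.1 FPKM and Lifr at 39.3, 45.1, 26.03, 42.9 and 49.6. Ifngr1, a chain of the interferon gamma receptor, was at 14.5 ± 4.85 FPKM. All 20 listed cytokine receptor genes had a mean of at least 1 FPKM, and 13 of them were lowest in library 5.

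G protein-coupled receptors were low as a class. Of 702 genes with that GO term, 155 had a mean of at least 1 FPKM and 23 of at least 10, and the median gene was at 0.0381 FPKM. The GABA-B subunit Gabbr1 was first at 56.01, 70.8, 37.2, 49.7 and 62.8 FPKM. Its obligate partner Gabbr2 was 2.11 to 3.32 times lower, at 23.4 ± 7.85 FPKM. F2rl2, a protease-activated receptor, was at 55.7, 52.7, 49.4, 38.8 and 45.2 FPKM. The lysophosphatidic acid receptor Lpar3, at 23.9 ± 6.06, and the ADP receptor P2ry1, at 22.04 ± 4.35 FPKM, came next among receptors of amines, purines and lipids. Of 71 such genes, 38 had a mean of at least 1 FPKM.

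In the Mrgpr family of itch and pain receptors, 11 of 29 genes had a mean of at least 1 FPKM and 11 had one under 0.1. Mrgprd was highest, followed by the pseudogene entry Mrgprx3-ps at 35.9, 29.6, 35.8, 25.8 and 26.3 FPKM. Mrgprx1, the receptor of the itch peptide BAM8-22, was at 13.5 ± 4.02 FPKM. Members of this cluster are close copies, so the split of reads between them is uncertain. Opioid and cannabinoid receptors were scarce in comparison. The cannabinoid receptor Cnr1 was at 5.04 ± 1.46 FPKM, the nociceptin receptor Oprl1 at 3.94 ± 0.907 and the delta opioid receptor Oprd1 at 2.25 ± 1.17. The mu opioid receptor Oprm1, the target of morphine, was at 0.663, 1.61, 0.491, 1.37 and 0.347 FPKM. It was below Oprd1 in 4 of 5 libraries and uneven, with an SD of log2 CPM of 0.95. The kappa receptor Oprk1 was at 0.3501 ± 0.104 FPKM. Among 34 receptors of peptides, Npr2, the receptor of C-type natriuretic peptide that guides axon branching, was highest at 23.1 ± 3.99 FPKM. Cckar was at 8.64 ± 1.43 and Npy2r at 8.42 ± 1.76 FPKM, with 15 of the 34 at a mean of at least 1 FPKM.

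Transcription factors of sensory neurons ranged from scarce to abundant, and of 47 listed 36 had a mean of at least 1 FPKM. Of 1126 genes with the GO terms for sequence-specific transcription factors, 670 had a mean of at least 1 FPKM. Nfe2l1, a regulator of proteasome genes in many tissues, was first at 102 ± 14.1 FPKM. Isl2, a LIM homeodomain factor of sensory neurons, was second at 74.1, 73.5, 46.1, 67.4 and 77.7 FPKM. It was above Isl1, at 19.8 ± 3.06 FPKM, by 2.58 to 4.27 times. Pcbp1, Jund, Nacc2, Atf4, Thra and Stat3 followed, from 55.8 to 34.6 FPKM, all with roles in many tissues. In the list of sensory neuron factors Ldb2, a cofactor of LIM factors, was at 36.6 ± 3.72 and Klf7, needed for nociceptor survival, at 32.2 ± 7.48 FPKM. Pou4f1 (Brn3a), a factor that defines sensory neurons, was at 29.5, 29.95, 18.1, 29.97 and 40.3 FPKM, lowest in library 3 and highest in library 5. Library 3 was lowest for 25 of the 47. Runx1, which sets the non-peptidergic class, was at 7.14 ± 1.504 FPKM, and Runx3, which sets limb position neurons, at 1.18 ± 0.334.

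Glial factors were lower. Id3, an inhibitor of helix-loop-helix factors, was at 25.5 ± 7.37, Id4 at 13.04 ± 1.15 and Id2 at 11.2 ± 4.38 FPKM. Sox10, required by all peripheral glia, was at 11.96, 10.7, 12.6, 7.07 and 11.9 FPKM and was the highest of 19 Sox genes. Egr2 (Krox20), the master factor of myelination, was at 4.23 ± 1.26 FPKM. Of 34 Hox genes, which mark position along the body axis, 22 had a mean of at least 1 FPKM. Hoxa7, Hoxd1 and Hoxa10 led at 8.96 ± 2.02, 8.46 ± 3.23 and 7.39 ± 1.35 FPKM, with no neighbouring pair among them in the same order in all 5 libraries. Of 47 nuclear receptors, 27 reached a mean of 1 FPKM, led by the thyroid hormone receptor Thra at 39.6 ± 5.03, then Nr1h2 at 16.7 ± 1.47 and Nr1d2 at 14.6 ± 2.94 FPKM.

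**Figure D3:**
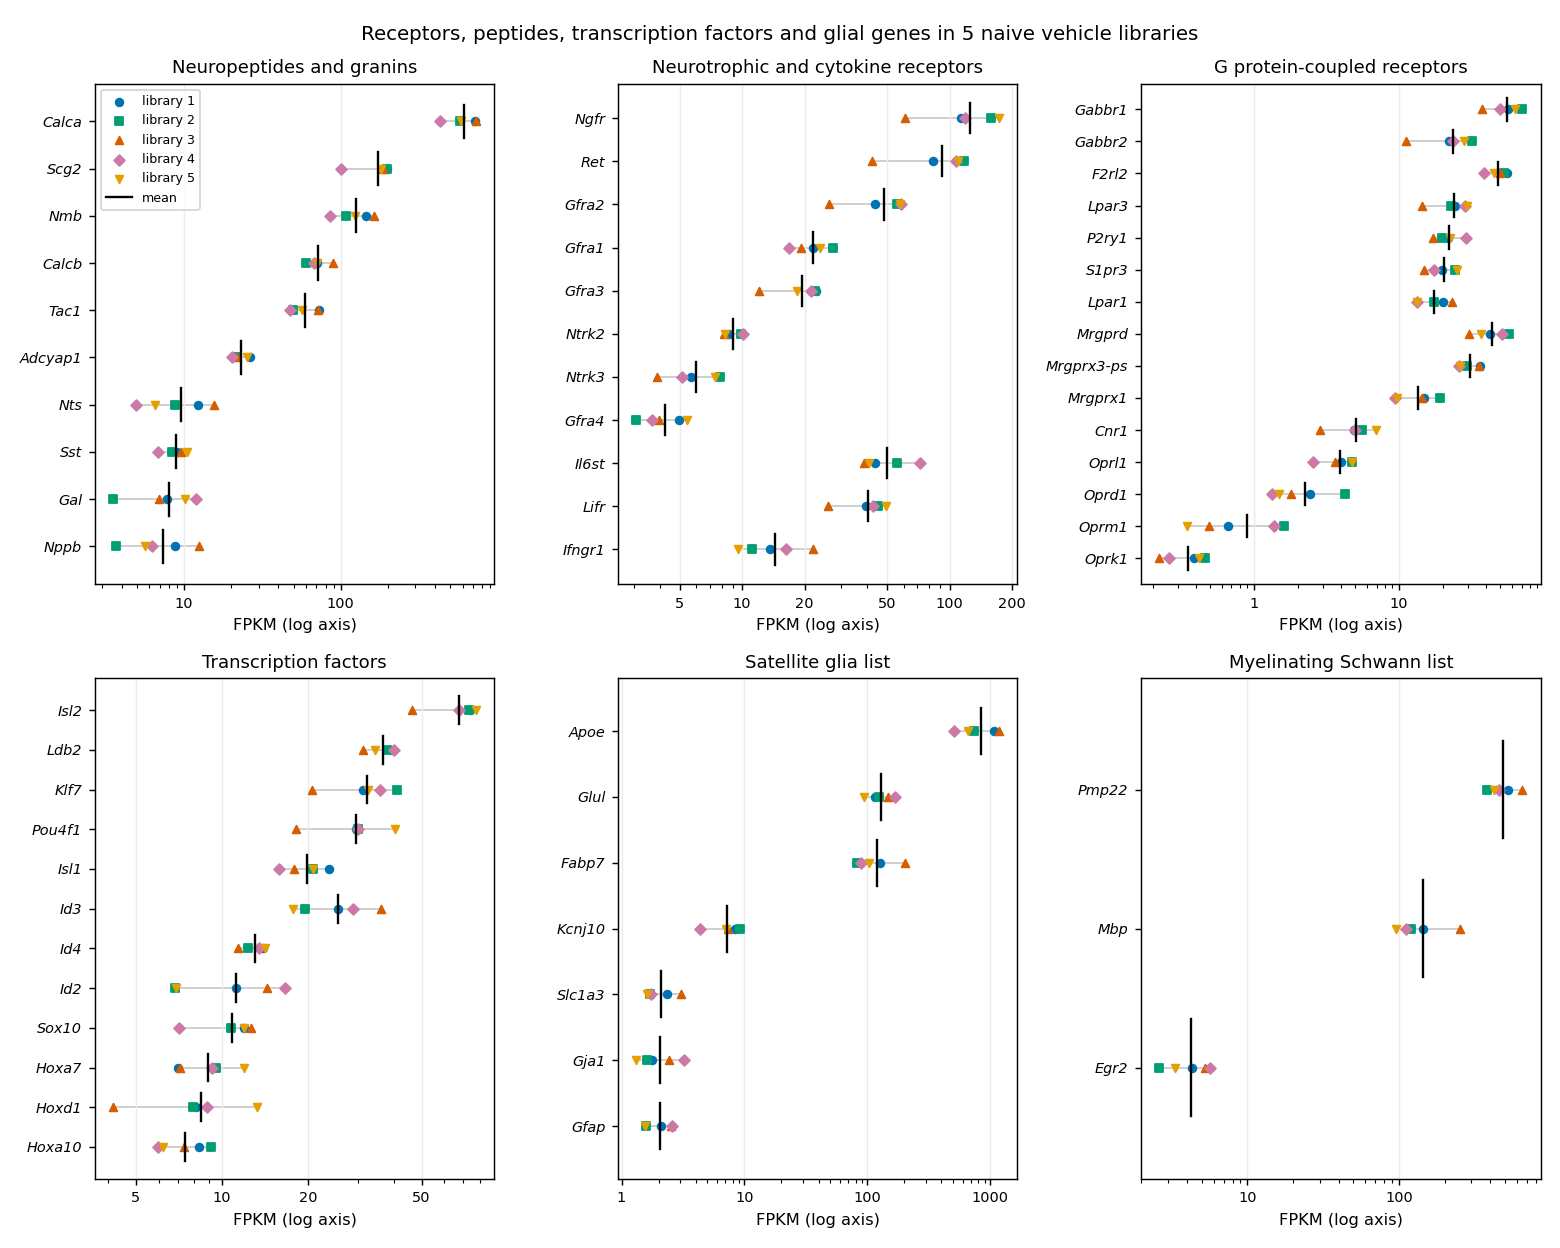
FPKM (log axis) of selected peptide, receptor, transcription factor and glial genes, 1 row a gene in order of mean level within a list, with 1 point for each naive vehicle library and a bar at the mean. Library 3 is the lowest for Ret, Isl2 and Pou4f1 and the highest for Mbp, Pmp22 and Fabp7.

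Glial genes were abundant, and the satellite glia and myelinating Schwann lists were close in summed FPKM. Satellite glia were above in library 1 and below in the other 4. Pmp22, a compact myelin protein, was at 525, 383, 651, 455 and 423 FPKM. Mbp, myelin basic protein, was at 144, 120.0, 251, 112 and 95.6 FPKM. Both were highest in library 3, as were 17 of the 19 genes of the myelinating Schwann list. S100b, found in Schwann cells and satellite glia, was at 247, 237, 252, 119.8 and 250.3 FPKM, with library 4 alone below the other values. Satellite glia are known by Apoe, Glul and Fabp7. Apoe, a lipid carrier that macrophages also make, was at 1077, 742, 1181, 507 and 653 FPKM, Glul, glutamine synthetase, at 129 ± 28.3 and Fabp7, a fatty acid binding protein, at 127, 82.5, 201, 88.5 and 103. The 3 defining genes of the list with the lowest levels were Gfap, at 2.08, 1.57, 2.55, 2.56 and 1.56 FPKM, Gja1 and Slc1a3, at 2.07 and 2.09 FPKM. Gfap is known to be low in satellite glia at rest. Library 4 was lowest for 8 of the 14 satellite genes.

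Markers of other cell types ranged from scarce to abundant. The erythroid list, with the globins, summed to 4204 to 16761 FPKM and the fibroblast list to 594 to 2917, against 863 to 1723 for satellite glia and 1100.5 to 1941 for myelinating Schwann cells. Single genes that other cells also make carry 2 of these sums: Apod was 70.7 ± 5.92% of the fibroblast sum, and Apoe 67.3 ± 5.12% of the satellite sum. Of 10 genes listed for glia of the spinal cord and brain, 4 had a mean of at least 1 FPKM and none reached 10. Mobp, a central myelin protein, was at 2.74 ± 0.266, Aqp4, a water channel, at 2.34 ± 0.497 and Slc1a2, a glutamate transporter, at 1.58 ± 0.0773 FPKM, while Olig2 was at 0.0799 ± 0.01703 and Opalin at 0.106 ± 0.0273. The highest, Tmem119 at 2.74, 2.44, 7.61, 9.14 and 1.597 FPKM, is not found in central microglia alone. Macrophage genes were low but present, 14 of 15 at a mean of at least 1 FPKM. Csf1r, whose promoter drives the transgene of the strain, was at 8.65, 5.99, 17.1, 8.45 and 3.23 FPKM. Its level was highest in library 3 and lowest in library 5, as were those of C1qa, C1qb and C1qc. C1qa, a chain of complement C1q, was at 29.8, 14.5, 65.05, 23.5 and 9.63 FPKM, and the ratio of C1qa to Csf1r stayed between 2.42 and 3.81. Adgre1, the F4/80 antigen, was at 5.42 ± 4.64 and Cd163 at 5.23 ± 3.37 FPKM.

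Genes of neutrophils and their precursors were higher than those of macrophages. Ngp, a granule protein of bone marrow neutrophils, was at 223, 244, 475, 628 and 232 FPKM, and S100a9, a calcium-binding protein of neutrophils, at 227, 219, 455, 569 and 296. The order of the 2 changed between libraries, and both were highest in library 4. The primary granule genes Elane and Mpo, normally confined to bone marrow precursors, were at 11.1 ± 5.77 and 10.9 ± 5.48 FPKM, so 16 of 16 genes of the list had a mean of at least 1 FPKM. The red cell gene Alas2, of erythroid haem synthesis, was at 56.02 ± 42.2 FPKM. The B-lineage gene Ighm was at 39.9 ± 12.8 FPKM, and 8 of its 12 list genes reached 1 FPKM. T and NK cell genes were the lowest of the blood lists, with 2 of 10 at a mean of at least 1 FPKM, led by Nkg7 at 1.81 ± 1.35. The cell cycle gene Mki67 was at 9.91 ± 5.93 FPKM, highest in library 4 along with all 8 genes of the proliferation list. The source of these transcripts was not tested.

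Connective tissue, vessel and muscle genes were uneven between libraries. Of the fibroblast list 7 of 10 genes had a mean of at least 10 FPKM, and of the endothelial list none of 9. Dcn, decorin, a matrix protein of fibroblasts, was at 232, 135, 518, 254 and 93.8 FPKM. Rgs5, a pericyte gene that sensory neurons may also express, was at 57.8 ± 8.86 FPKM, while the muscle actin Acta2 was at 15.8 ± 16.5. Pecam1, of endothelium, was at 4.34, 3.57, 6.76, 21.4 and 3.26 FPKM, with library 4 far above the others. Skeletal muscle actin, Acta1, was at 19.1, 21.9, 64.97, 9.94 and 1.64 FPKM, lowest in library 5 and highest in library 3. Of 8 epithelial genes only Cdh1, E-cadherin, had a mean above 2 FPKM, at 41.5, 47.8, 30.6, 50.9 and 41.3, and Epcam was under 0.1 FPKM. Cdh1 was lowest in library 3 and is known from some sensory neurons and glia.

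Promoters of list genes were inspected for the TATA box letters TATAAA on either strand, with no overlap to another motif searched. In RefSeq promoters of GRCm38.p6, 250 bases before to 50 after a start, 13.6% of 32851 held it. Among 8 lists inspected, it was in 3 of 7 promoters of skeletal muscle genes, 7 of 16 of neutrophil genes, 3 of 7 of erythroid genes and 2 of 8 of fibroblast genes. It was in 1 of 27 promoters of myelinating Schwann genes, 2 of 12 of pan-neuronal genes, 1 of 10 of sodium channel pores and 5 of 50 of sensory transcription factors. A gene can have several promoters in the table. For a view of both kinds, the highest member with an entry is printed for neurons and Schwann cells, and the highest member that holds the letters for muscle and neutrophils. Each is read 5′ to 3′ on the gene's strand, with the motif in capitals. Acta1 holds it 7 bases before the RefSeq start and S100a9 at the start itself, while Sncg (chr14:34374620-34374919, minus strand) and Pmp22 (chr11:63128732-63129031, plus strand) hold none. Acta1 is at chr8:123894726-123895025 and S100a9 at chr3:90695672-90695971, both on the minus strand.
Sncg: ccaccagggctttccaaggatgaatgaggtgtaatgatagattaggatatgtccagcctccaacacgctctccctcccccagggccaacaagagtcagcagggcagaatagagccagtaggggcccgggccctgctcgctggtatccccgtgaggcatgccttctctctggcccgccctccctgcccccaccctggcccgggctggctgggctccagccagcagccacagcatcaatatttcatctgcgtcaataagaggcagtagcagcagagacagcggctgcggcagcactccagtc
Pmp22: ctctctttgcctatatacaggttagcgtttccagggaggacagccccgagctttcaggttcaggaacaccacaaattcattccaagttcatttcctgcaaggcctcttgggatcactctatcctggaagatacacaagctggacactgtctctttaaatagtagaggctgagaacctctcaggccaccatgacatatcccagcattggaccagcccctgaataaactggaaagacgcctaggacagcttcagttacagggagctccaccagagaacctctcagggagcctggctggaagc
Acta1: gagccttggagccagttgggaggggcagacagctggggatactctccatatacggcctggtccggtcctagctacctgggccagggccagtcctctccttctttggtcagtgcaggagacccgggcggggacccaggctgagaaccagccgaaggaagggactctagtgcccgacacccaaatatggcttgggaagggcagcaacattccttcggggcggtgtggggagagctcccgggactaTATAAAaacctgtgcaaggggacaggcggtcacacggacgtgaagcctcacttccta
S100a9: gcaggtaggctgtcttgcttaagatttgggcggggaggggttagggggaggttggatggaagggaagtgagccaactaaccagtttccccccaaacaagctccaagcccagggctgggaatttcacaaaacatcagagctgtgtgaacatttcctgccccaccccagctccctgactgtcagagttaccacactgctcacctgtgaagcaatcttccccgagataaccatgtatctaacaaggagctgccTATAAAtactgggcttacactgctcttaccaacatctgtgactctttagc
The match is a description of letters and says nothing of binding.

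Lists that report on a cell's state held members at very different levels. Among immediate early genes, Jund was at 45.3 ± 14 and Jun at 20.96, 24.2, 15.1, 20.3 and 24.3 FPKM, while Fos was at 2.39 ± 0.713, Arc at 0.958 ± 0.211 and Fosb at 0.215 ± 0.122. Of the other nerve injury genes, Gadd45a was at 9.402 ± 0.609, Atf3, a factor switched on in damaged neurons, at 3.67, 3.36, 4.53, 1.61 and 4.39, Sox11 at 0.933 ± 0.187 and Sprr1a at 0.927 ± 0.814 FPKM. Atf3 was lowest in library 4. No level in injured ganglia is at hand here, so these values are not read as a degree of injury. Glucocorticoid-responsive Tsc22d3 was at 51.3 ± 12.7 and Fkbp5 at 9.04, 9.07, 11.2, 18.9 and 8.33 FPKM. Among clock genes Dbp was at 5.09, 4.91, 11, 10.3 and 4.09 FPKM and Per2 at 2.58, 2.204, 3.13, 5.82 and 2.35.

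The 5 libraries were not alike, and whole lists moved with a library. List levels were computed by averaging log2 CPM over the members, and are given as the difference from the 5-library mean of the list. Of 14 ion channel lists, 11 were lowest in library 3 and 8 highest in library 2, counts that became 7 and 4 by the median of members, while by the mean the TRP and P2X lists were lowest in library 4. The 7 neuron class lists had no common order: 3 were lowest in library 3, 3 in library 4 and 1 in library 5. The transmitter release list was at 0.42 in library 2, 0.42 in library 5 and -0.63 in library 3, and 15 of its 20 genes were lowest there. The pan-neuronal list was lowest in library 4, at -0.49, with 11 of 16 genes lowest there. Beta subunits of sodium channels and the 4 Hcn genes were at -0.64 and -0.65 in library 3. Of 15 lists of other cell types, 9 were highest in library 4 and 6 in library 3, and 12 were lowest in library 5. The non-myelinating Schwann list was highest in library 2, at 0.33, and lowest in library 3, at -0.35. Library 3 was highest for myelinating Schwann genes, at 0.52, for macrophage genes, at 1.06 with 13 of 15 highest there, and for ribosomal protein genes, at 0.53 with 78 of 90. Library 4 was highest for all 10 erythroid genes, at 1.27, for all 9 endothelial genes, at 1.23, and for 15 of 16 neutrophil genes, at 0.84. Library 5 was lowest for all 10 fibroblast genes, at -1.07, and for all 9 skeletal muscle genes, at -2.74. The muscle list spanned 4.76 on the log2 scale between libraries 3 and 5, the widest of the 63 lists. CPM are shares of a library, so a rise of some lists lowers the others, and the part of each was not tested.

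**Figure D4:**
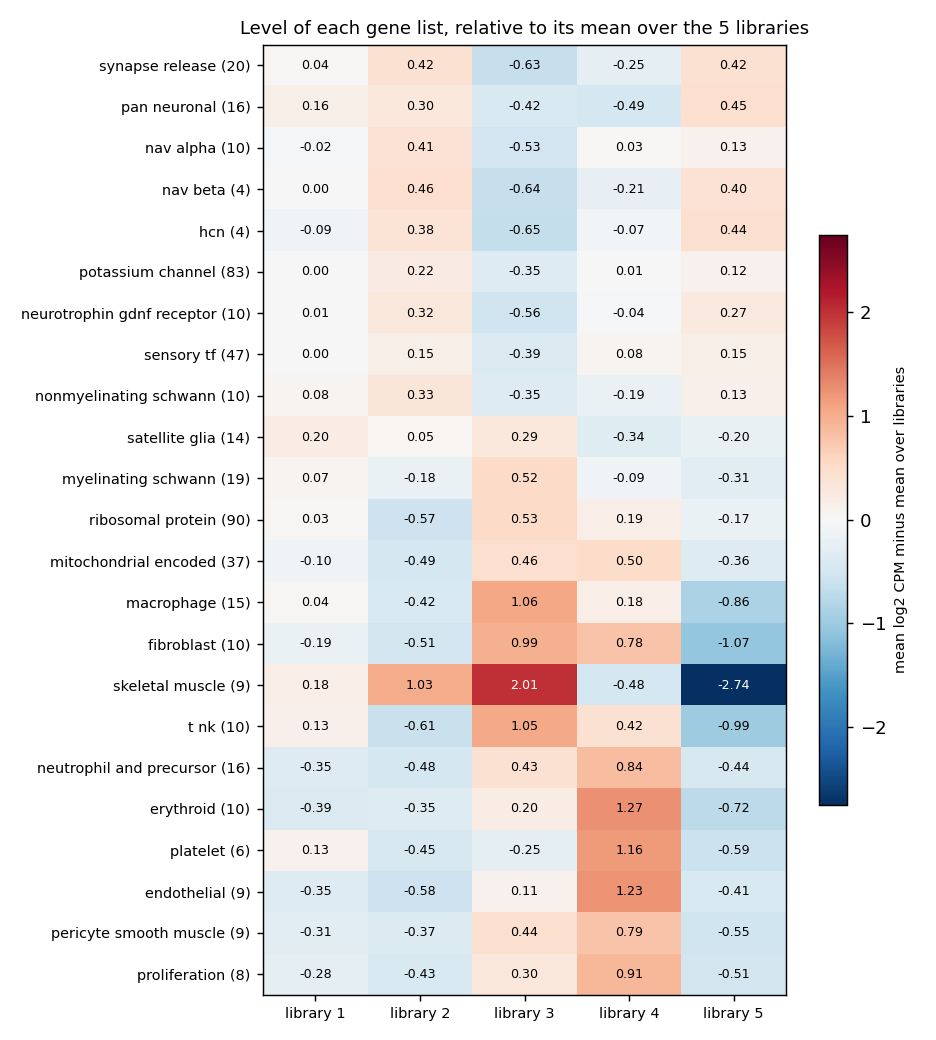
Mean log2 CPM of each gene list in each naive vehicle library minus the mean of that list over the 5 libraries, with the number of genes in brackets and the value in each cell. Red is above and blue below the mean: libraries 2 and 5 are above it for transmitter release genes, and library 4 is at 1.27 for erythroid genes.

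Libraries differed in gene length profile as well. Each gene's deviation from its mean over libraries was compared with the length implied by its count and FPKM. In library 2 the longest 25% of genes had a median deviation of 0.126 and the shortest 25% one of -0.142 on the log2 scale. Library 3 showed the opposite, -0.090 for the longest and 0.193 for the shortest. The part of length in the list levels was not tested.

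Single genes were mostly steady. Among 15958 genes with a mean of at least 1 CPM the SD of log2 CPM over the 5 libraries had a median of 0.311, and 90% of genes were under 0.704. For scale, counting error alone gives 0.18 at 1 CPM. An SD of at least 1 log2 unit was found for 441 genes, or 2.76%. Genes under that cut-off can still differ widely between libraries. Apod, with an SD of 0.826, was 4.4 times higher in library 3 than in library 5 by CPM. Of the 441 genes, 243 were highest in library 4 and 124 in library 3, and 198 were lowest in library 5. The count was 278 without library 4 and 698 without library 1. At a mean of 10 CPM or more, 116 of 10634 genes had such an SD. Among list members with a mean of at least 1 CPM, 9 of 9 skeletal muscle genes reached it, 4 of 9 pericyte and smooth muscle, 3 of 15 macrophage, 2 of 10 fibroblast, 2 of 9 calcium channel pore and 2 of 6 bone and cartilage genes. It was also 1 of 2 epithelial, 1 of 4 adipocyte and 1 of 4 T and NK cell genes, and 2 of 71 potassium channel genes, a share near that of all genes. Further lists had 1 of 6 (central glia), 1 of 9 (endothelial), 1 of 11 (B lineage) and 1 of 11 (nicotinic and serotonin-gated). The rest were 1 of 12 Mrgpr, 1 of 13 Sox, 2 of 35 nuclear receptor, 2 of 56 amine, purine and lipid receptor and 1 of 87 ribosomal protein genes. None of the 16 pan-neuronal, 14 satellite glia, 19 myelinating Schwann or 16 TRP genes had such an SD, and none of the 10 pore and 4 beta sodium channel genes. With so few genes, a count of 0 is near the share of all genes, 2.76%. The median SD was 0.453, 0.439 and 0.391 in the first 3 of these lists and 0.532 for the sodium channel pores, above the 0.311 of all genes. It was 0.281 for the TRP genes.

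Among the 30 most variable named genes were several of muscle. Of these, Myh4, Atp2a1, Ckm and Acta1 are in the skeletal muscle list, and Myh2, Ckmt2, Ampd1, Xirp2 and Myoz1, in none of the lists, are known from muscle too. Myh4, a fast myosin, was at 15.1, 52.4, 119, 8.77 and 2.84 CPM in libraries 1 to 5, and Ckm, muscle creatine kinase, at 22.9, 38.7, 97.1, 10.4 and 2.73. Hjv, hemojuvelin, which muscle and liver make, went with them at 0.744, 0.852, 3.76, 0.522 and 0 CPM. In all of these but Myh2 library 3 was highest, and library 5 was lowest. Some others of the 30 were highest in library 4. Prg4, lubricin of joint surfaces and tendon sheaths, was at 2.15, 4.32, 4.79, 84.1 and 12.5 CPM, Cytl1, a cytokine-like protein of cartilage, at 1.52, 0.694, 3.01, 24.2 and 1.25 and Gja5, connexin 40 of arteries, at 0.301, 0.1104, 0.369, 8.497 and 0.818. These are 3 genes picked from the 30 and no list, and the bone and cartilage list was highest in library 3. Ptgds, the prostaglandin D synthase of the meninges, stood just outside the 30 at 18.2, 36.3, 93.4, 521 and 128 CPM and was chosen after its values were seen. Highest in library 3 were also Krt8, a keratin, at 1.73, 0, 9.59, 0 and 0.319, Dsp, desmoplakin, at 2.42, 0.158, 8.02, 2.12 and 0.388 and T, brachyury, at 3.01, 0.252, 9.55, 0.0633 and 0.499 CPM. The letter-named gene T is the notochord factor.

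Others in the list are less certain as measures of a gene. Of the 30, 9 overlap another gene on the same strand, or 30%, against 19.9% of all genes with a mean of at least 1 CPM. Commd1b, at 0, 6.34, 0, 0 and 0.111 CPM, overlaps Commd1, and Evi2, at 3.34, 1.77, 22.7, 34.6 and 1.39, overlaps Evi2a and Evi2b, so reads can be given to either. H2-Q1, an MHC class I gene at 0, 2.46, 6.54, 7.199 and 2.72 CPM, and H3c14, a histone gene at 0.127, 0.126, 4.61, 4.64 and 0.291, have close copies. Of the 30 genes 8 had no count in at least 1 library. A count of 0 allows up to 3 counts, which is 0.0396 to 0.0475 CPM in these libraries, for counting error only.

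The steadiest genes with a mean of at least 10 CPM were of several kinds. Il10rb, a chain shared by receptors of interleukin-10 and related cytokines, was at 12.6, 12.01, 13.3, 13.02 and 12.1 FPKM, with an SD of log2 CPM of 0.0132. Vps72, Aaas, Trmt2b and Zfp512 followed, all with an SD under 0.03. Klhl5 and Nt5e, an ecto-nucleotidase of nociceptors and other cells, were steady at 20.6 ± 0.851 and 9.81 ± 0.472 FPKM. With 10634 genes and 5 libraries, the lowest SDs include chance, and the order among these genes is not read. A neuronal gene was steady at a high level: Rgs4, a brake on G protein signalling, was at 501, 441, 436, 439 and 481 FPKM, rank 59, with an SD of log2 CPM of 0.12. It was chosen after its values were seen.

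**Figure D5:**
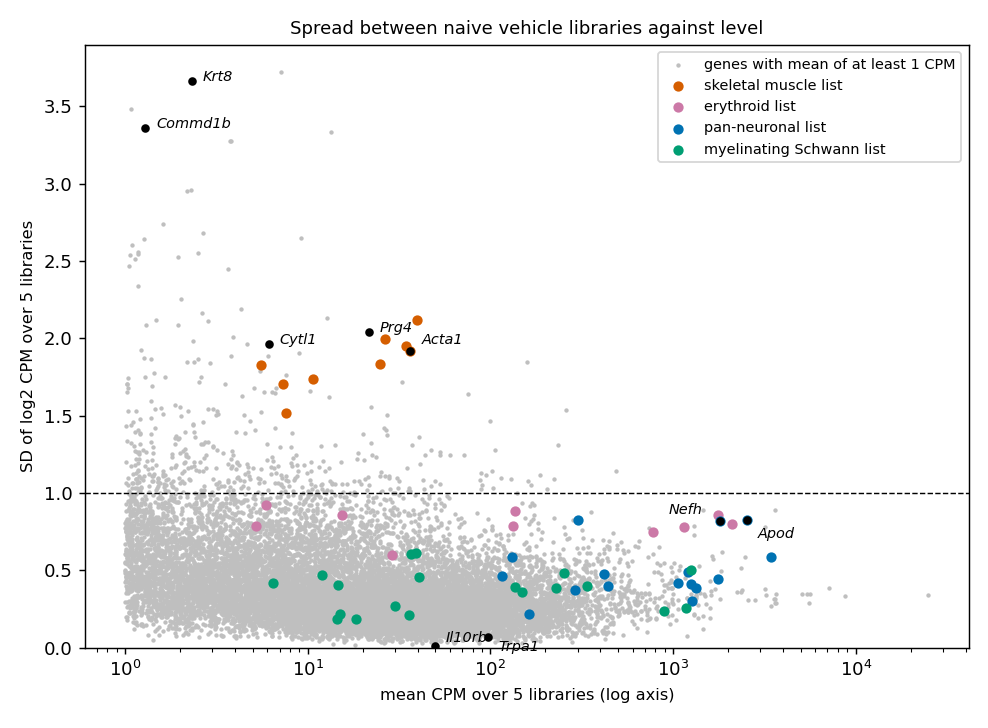
SD of log2 CPM over the 5 naive vehicle libraries against mean CPM (log axis), 1 point a gene with a mean of at least 1 CPM and the dashed line at an SD of 1. All 9 skeletal muscle genes lie above the line and all genes of the pan-neuronal and myelinating Schwann lists below it.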

How the data were processed

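The authors deposited 1 table of 36682 genes with whole-number counts and FPKM for each library, and these deposited counts and FPKM were used as given. The submitters' processing notes name cutadapt, HISAT2, StringTie and GRCm39, with no roles or versions. How reads shared by several genes were counted is not given in the sources used here. Libraries were grouped by the description label.

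Means and SDs of FPKM over the 5 libraries gave ranks. CPM came from the counts with edgeR 4.0.16 in R 4.3.3 (TMM, prior count 2 for log2), and genes with a mean of at least 1 CPM were compared between libraries. No groups were compared, and Dixon's test for a library that stands apart was the only test. The spread measure was tested on simulated data for the naive vehicle libraries, where 200 of 200 genes of known spread were recovered among 15958. Those 200 were set to a log2 SD of 2, above the cut-off of 1. All others had 1 common, low dispersion, and 0 of them reached an SD of 1. Recovery was easy by this design, so it checks the computation only and says nothing of genes near the cut-off.

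The 5 libraries and 63 gene lists were chosen with earlier results of these data known. Named by rule were the 25 highest genes, the 3 highest of each channel, receptor, factor, ligand, glial or neuron class list (all members of lists of up to 10), the 5 highest of other lists, the 30 most and 10 least variable genes with a full symbol, and Csf1r. Some genes that this rule names are not reported here. Genes outside this rule were named for a known role, with values in view. After the table was seen, 5 antisense or non-coding transcripts were left out of the potassium channel list. GO classes were added after the table was seen to hold them. Symbols Ahsp, Bmal1, Asic5, Gfral, Drgx and Iapp of the lists were not matched.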

Additional observations from a re-analysis of the deposited data

Results flagged for a closer look

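A library was set apart from the other 4 where the gap to its nearest neighbour was a large part of the whole range (Dixon's test at the 95% level), for 209 genes named in the text and 63 list levels. Chance alone would single out about 1 in 20 of these 272 sets, and 26 were singled out. The genes are not independent, since many rise and fall with their library, and some were named because they vary most, so that rate does not apply to them.

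Library 4 held most of the high values. Among them were Acta2, smooth muscle actin, at 44.8 FPKM, Pecam1 at 21.4, Gja5 at 1.48, Prg4 at 19.6, Cytl1 at 22.9 and Ptgds at 315.2. Aqp1, the water channel, was at 119.8 FPKM in library 4, the fat cell gene Adipoq at 2.52 and the lipase Pnpla2 at 15.4. As whole lists, endothelial genes were highest in library 4, but fibroblast genes and bone and cartilage genes in library 3. In library 4 the clock gene Per2 stood at 5.82 FPKM and the glucocorticoid-responsive Fkbp5 at 18.9. The low values of library 4 were neuronal and glial: Tuba1a at 1159 FPKM, Scg2 at 101.2 and S100b at 119.8. Its list levels, as mean log2 CPM, were low for nerve injury genes, at 2.16, and for neuropeptides, at 2.51.

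Library 3 was high for Adgre1 at 13.5 FPKM, Krt8 at 4.96, Dsp at 0.841 and Hjv at 1.88. It was low for Cckar, at 6.09 FPKM, and for Scn3b, at 15.6. Its list levels were low for metabotropic glutamate and GABA-B receptors, at 2.15, and for sensory neuron transcription factors, at 3.53.

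Library 2 was singled out for 2 genes: Commd1b, high at 2.15 FPKM and overlapped by Commd1, and Trpa1, low at 19.8 FPKM. The Trpa1 value lies close to the others in size and was set apart because those 4 were nearly equal.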

How the results depend on the processing

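With another summary, scale or cut-off, the 13787 genes with a mean of at least 1 FPKM became 12368 (at least 1 FPKM in every library), 17128 (TPM), 15864 (0.5 FPKM) or 21241 (0.1 FPKM), and 13667 to 13883 with 1 library left out. The share of the 25 most abundant genes, 33.3% of FPKM, was 11.9% of counts, 14.5% of FPKM without mitochondrially encoded genes, and 31.9% to 34.97% with 1 library left out. The same gene led its list in 58 of 63 lists by median, 63 by TPM, 42 by CPM not divided by length, and 58 to 63 with 1 library left out. Genes with an SD of log2 CPM of at least 1, 441 in all, were 518 without TMM, 426 with DESeq2 1.42.0 size factors and 461 with a prior count of 0.25. They were 180 at a mean of 5 CPM or more, 3019 at 0.1 CPM or more and 88 by log2(FPKM + 1), and a coefficient of variation of at least 0.7 by edgeR was found for 108. With 1 library left out the count ran from 278 (library 4) to 698 (library 1). Of the 100 most variable genes, 99 were shared without TMM and 24 with the cut-off of 0.1 CPM. The same library was highest in 52 of 63 lists by log2(FPKM + 1), in 46 by the median of members and in 55 without TMM. For 393 genes named by rule, TPM were 2.62 to 3.44 times FPKM. No paired analysis was possible because only 1 group was described. Depth limits genes near 1 CPM, and 5 libraries limit every SD.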

Other observations

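Lists of scarce cells gave values not described above. Eosinophil, basophil and mast cell genes were all present, 8 of 8 with a mean of at least 1 FPKM, led by Prg2, the eosinophil major basic protein, at 25.3 ± 10.5 FPKM. Of these, 6 were highest in library 3. Platelet genes were led by Ppbp at 15.5, 6.87, 7.94, 32.1 and 8.25 FPKM, and 5 of 6 were highest in library 4. Of 7 adipocyte genes, 4 had a mean of at least 1 FPKM. Pnpla2, a lipase of many tissues, led at 12.7 ± 1.54 FPKM, while Adipoq, which fat cells alone make in quantity, was at 0.888, 0.9001, 0.863, 2.52 and 0.317 FPKM. Of 10 bone and cartilage genes, 3 had a mean of at least 1 FPKM, led by Ctsk, cathepsin K, at 7.63 ± 3.75 FPKM, and Acan, aggrecan of cartilage, was at 0.728 ± 0.954 FPKM.

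Ribosomal protein genes held 1.11 ± 0.345% of counts. Rps3a1 was highest at 327 ± 116 FPKM, and 80 of 90 genes were lowest in library 2. Glial receptors were led by S1pr3 at 20.3 ± 4.37 FPKM and Lpar1 at 17.5 ± 4.32 FPKM, and 6 of 12 were highest in library 3. Erbb3, the neuregulin receptor of Schwann cells, was at 5.68 ± 1.38 FPKM and its partner Erbb2 at 1.74 ± 0.618 FPKM.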
